A study of Homo sapiens with 4 samples.

Results

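SNHG1, SNHG5, SNHG6, SNHG7, SNHG8, SNHG12, SNHG15, SNHG16, GAS5 and ZFAS1 are small nucleolar RNA host genes. They were taken by symbol from the count tables as a list of 10 genes out of 58243. The list was chosen with earlier results of these data known, so the number of members called does not come from an independent choice. All 10 had enough counts to be tested. The libraries came from SH-SY5Y, a human neuroblastoma cell line with neuron-like properties, which the treatment text calls differentiated with retinoic acid. There were 2 control libraries, from cells with no agent, and 2 SNP libraries, from cells exposed for 8 h to the nitric oxide donor sodium nitroprusside (SNP). The labels call the RNA of the SNP group oxidized, describe no step that selected oxidized RNA, and give neither the SNP dose that was sequenced nor the retinoic acid schedule. The libraries of a group are lettered a and b, and nothing states that they came from separate cultures, so the tests measure the spread between these libraries, which may be technical.

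Small nucleolar RNAs (snoRNAs) guide the chemical modification of ribosomal RNA: box C/D snoRNAs direct methylation of the ribose and H/ACA snoRNAs direct the change of uridine to pseudouridine. Most human snoRNAs are cut out of the introns of longer host transcripts. A non-coding host is spliced and exported, its short open reading frames end early, and its RNA is a substrate of nonsense-mediated decay, the cytoplasmic pathway that removes transcripts with premature stop codons. Many hosts start with a run of pyrimidines, the 5' terminal oligopyrimidine tract also found in ribosomal protein mRNAs, which ties their translation, and through it their decay, to growth conditions.

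The sequences around the transcription starts are shown because the members share features there that the choice of genes did not use. Each line runs 5' to 3' on the gene's strand from 45 bases before the RefSeq start to 25 bases from it (RefSeq, GRCh38.p14). Capitals mark the letters TATAA where they lie 45 to 16 bases before the start, and the longest stretch of C or T within the window from 10 bases before to 20 bases after it. A stretch that goes on past the window is counted only inside it, as in SNHG7. A sequence was found for 8 of the 10 members.
SNHG1, chr11:62855861-62855930, minus strand: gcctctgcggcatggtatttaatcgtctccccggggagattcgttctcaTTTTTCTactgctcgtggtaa
SNHG5, chr6:85678709-85678778, minus strand: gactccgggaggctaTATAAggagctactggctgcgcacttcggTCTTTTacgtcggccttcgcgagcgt
SNHG7, chr9:136728160-136728229, minus strand: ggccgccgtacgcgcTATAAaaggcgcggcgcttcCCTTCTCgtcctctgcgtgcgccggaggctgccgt
SNHG8, chr4:118278717-118278786, plus strand: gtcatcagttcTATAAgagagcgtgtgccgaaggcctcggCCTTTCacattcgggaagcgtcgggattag
SNHG12, chr1:28581849-28581918, minus strand: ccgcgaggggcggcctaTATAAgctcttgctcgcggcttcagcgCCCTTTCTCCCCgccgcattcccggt
SNHG16, chr17:76557719-76557788, plus strand: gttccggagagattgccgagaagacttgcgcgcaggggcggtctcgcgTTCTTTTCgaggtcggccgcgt
GAS5, chr1:173869021-173869090, minus strand: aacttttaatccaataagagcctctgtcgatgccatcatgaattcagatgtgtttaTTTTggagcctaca
ZFAS1, chr20:49278597-49278666, plus strand: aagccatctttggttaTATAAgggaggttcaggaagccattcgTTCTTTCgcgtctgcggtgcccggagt

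The letters TATAA stood on the gene's strand in 5 of the 8 windows, those of SNHG5, SNHG7, SNHG8, SNHG12 and ZFAS1, and in 4.10% of the 35116 promoters of the table. On the other strand they stood in 1 of the 8, against 1.95% of all promoters. A pyrimidine run of at least 6 bases lay between 10 bases before and 20 bases after the start in 7 of the 8 members. The same held for 30.4% of all promoters. The median longest run was 7 bases in the members and 4 bases in the table. The run of SNHG7 began 10 bases before the start and ended before it. Those of SNHG16 and SNHG1 began at bases 4 and 5 of the transcript. A run counted here is therefore not always a tract at the 5' end of the RNA. The longest run was that of SNHG12, with 12 bases, and the shortest that of GAS5, with 4. The GAS5 window lies wholly upstream of the GENCODE 29 gene model, so its run does not describe the start of that model. The RefSeq starts of SNHG12, ZFAS1 and GAS5 lie 1259, 464 and 163 bases from the outermost start of the GENCODE 29 gene model, and those of the other 5 lie at most 53 bases from it. All 5 members with TATAA also had a run of at least 6 bases. Of these, SNHG5 and SNHG7 were higher in SNP, SNHG8 was lower, and SNHG12 and ZFAS1 did not pass the test described below. Whether start sequence and response are linked was not tested. These matches describe letters in a window and are not mapped sites.

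Summed gene counts ranged from 5613144 in control b to 8056550 in SNP a, against a labelled depth of 40 M reads of 75 bp per library. A count of 3, the floor used here, corresponded to between 0.372 and 0.534 counts per 1000000 counts (CPM), which covers counting error only. The line was checked against 10 genes of noradrenergic neuroblastoma, of which 9 were counted well enough to be tested, among them PHOX2A, HAND2 and GATA2; TH, which encodes tyrosine hydroxylase, was listed at 0 in every library. Of 10 markers of other cell types only EPCAM was tested, and PTPRC, KRT5 and AIF1 were at 0 in every library. All 943 rows of the snoRNA class held 0 counts in every library, so the snoRNAs themselves were not measured. That includes 26 snoRNA rows that lie inside 9 of the members.

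Most of these host genes had higher levels in the SNP libraries. Of the 10 members, 7 were higher in SNP, SNHG8 was lower, and SNHG12 and ZFAS1 did not pass an adjusted p of 0.05 (quasi-likelihood test of edgeR, Benjamini-Hochberg adjusted over the 14759 genes tested). Over all genes tested, 26.2% passed that threshold, 13.6% higher and 12.6% lower. The median log2 fold change of SNP over control was 0.43 over the members and -0.0042 over all genes tested. The 8 calls became 1 without control a, and 3 when guanine-over-cytosine content entered the fit beside length and GC content, while length and GC content alone left 8. In 7 members both SNP values lay above both control values, which held for 31.7% of all genes tested, and in 2 members, SNHG8 and SNHG12, both lay below, which held for 32.3%. Fewer cells with such a transcript and less of it per cell cannot be told apart in RNA from whole cultures. Each fold change below is on the log2 scale with a standard error (SE). The SE was taken as the absolute log2 fold change over the square root of the test's F statistic, so it restates that test. Each adjusted p is from that edgeR test unless another is named. Means are in CPM after TMM scaling, a correction for library composition (SD, n = 2 per group).

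**Figure D1:**
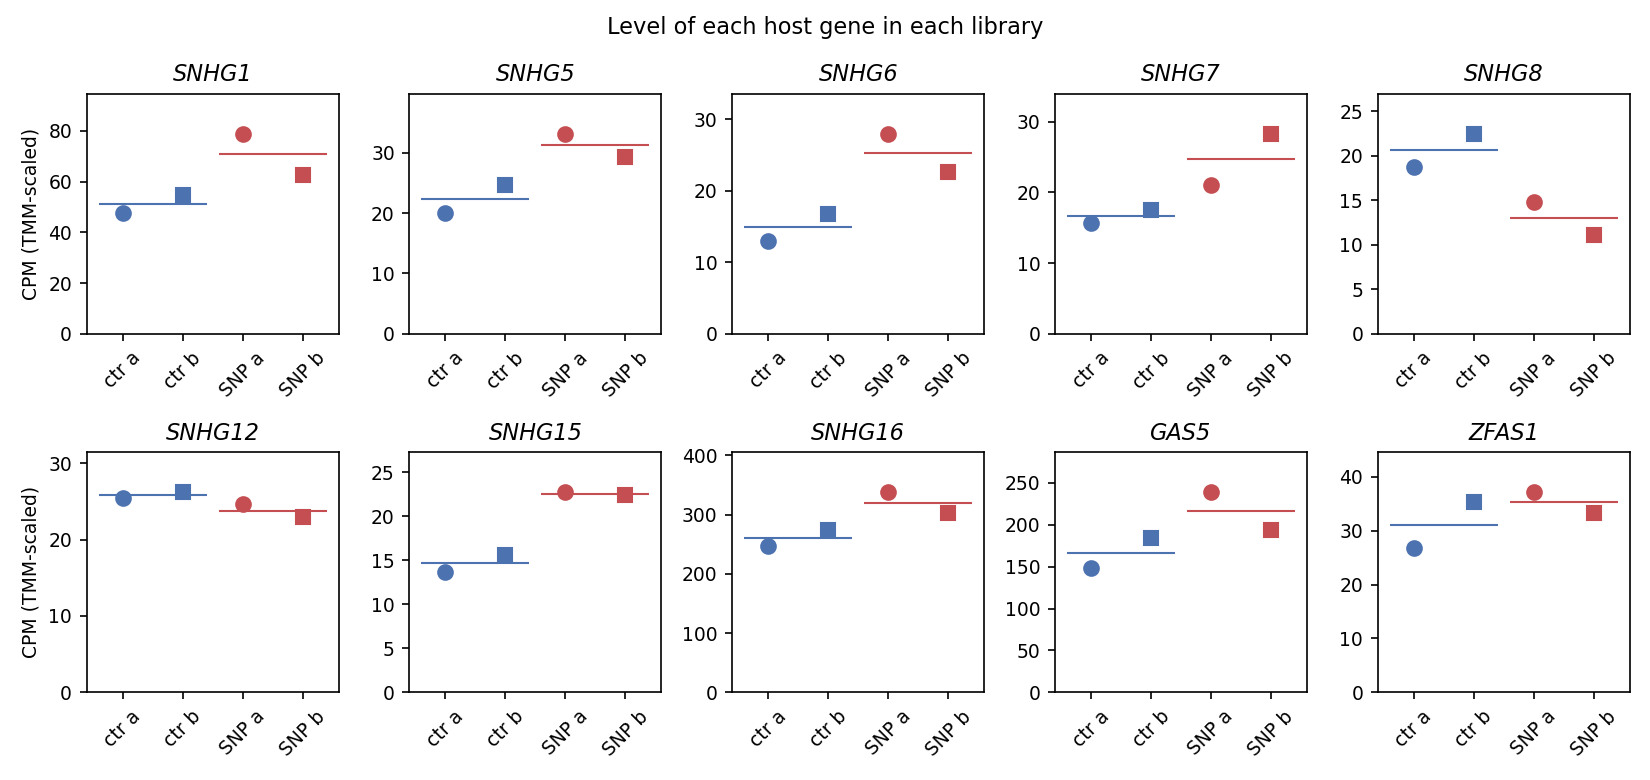
CPM after TMM scaling (y axis, from 0, a different range in each panel) of each host gene in the 4 libraries; circles are library a, squares library b, blue is control, red is SNP, and lines are group means. Both SNP points lie above both control points in 7 panels, below them in those of SNHG8 and SNHG12, and overlap them in that of ZFAS1; the control square lies above the control circle in all 10 panels.

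The replicates were ordered alike in nearly all members. Control b exceeded control a in all 10, by 0.046 to 0.40 on the log2 scale, and SNP b lay below SNP a in 9, SNHG7 being the exception at 0.43 above. Over all genes tested, control b exceeded control a in 50.3% and SNP b lay below SNP a in 50.02%. The mean of the members' log2 CPM, centred per gene over the 4 libraries, was -0.27 and -0.029 for the control pair (a, b) and 0.22 and 0.071 for the SNP pair. The gap between the groups was therefore widest between control a and SNP a and narrowest between control b and SNP b.

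The number of members that passed differed with the library left out, with the lone library of a group assumed to vary like the other group. Without control a, 1 member passed, SNHG8 (16% of all genes passed); without control b, 6 passed (15.8%); without SNP a, 4 passed (20.3%); and without SNP b, 6 passed (27.5%). The median log2 fold change of the members was 0.28, 0.56, 0.26 and 0.46 in the same order. No member passed in all 4 of these fits, and no member that passed with all libraries changed direction in them. DESeq2's Wald test called 4 members, SNHG1, SNHG6, SNHG16 and GAS5, all higher, where it called 16.4% of all genes.

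The members whose listed snoRNAs with a SNORD or SNORA name are all SNORD, the box C/D kind, are SNHG1, SNHG5, SNHG6, SNHG16 and ZFAS1. Of these 5, 4 were higher in SNP, where 13.6% of all genes tested were. With the guanine-over-cytosine offsets SNHG1 alone of them passed, where 18.7% of all genes did. GAS5, described below, is not counted among them because none of its snoRNA rows was matched. Whether the kind of snoRNA and the response are linked was not tested. SNHG1 (ENSG00000255717; chromosome 11, 62851988 to 62855914, minus strand, GRCh38 positions from GENCODE 29) is the host of SNORD22, SNORD25, SNORD26, SNORD27, SNORD28 and SNORD30, and a further snoRNA row inside it, RF00099, has neither kind of name. It was counted 310 and 310 times in the control pair (a, b) and 629 and 484 times in the SNP pair. Both SNP values were above both control values, and SNP a stood highest. The mean rose from 51.3 ± 5.10 to 70.8 ± 11.6 CPM (log2 fold change 0.47, SE 0.135, adjusted p = 0.0136). It did not pass without control a (0.36, edgeR adjusted p = 0.185) or without SNP a (0.29, edgeR adjusted p = 0.135). SNHG1 starts 188 bases from SLC3A2, which lies on the other strand and encodes the heavy chain of amino acid transporters. SLC3A2 had 283 and 259 control counts and 437 and 479 SNP counts and rose by 0.39 (SE 0.129, edgeR adjusted p = 0.0310), but did not pass without control a, control b or SNP b (0.34, 0.42 and 0.30, edgeR adjusted p = 0.238, 0.121 and 0.111) or with DESeq2 (DESeq2 adjusted p = 0.102).

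SNHG16 (ENSG00000163597; chromosome 17, 76557766 to 76565348, plus strand), the host of SNORD1A, SNORD1B and SNORD1C, was the most abundant member. Its counts were 1610 and 1552 for the control pair (a, b) and 2694 and 2342 for the SNP pair. The groups did not overlap, and the mean rose from 261 ± 19.2 to 321 ± 25.01 CPM. That is the smallest rise among the members that passed, with a log2 fold change of 0.30 (SE 0.0981, adjusted p = 0.0296). The rise did not pass without control a (0.22, edgeR adjusted p = 0.315) or without SNP a (0.21, edgeR adjusted p = 0.159). Its start lies 83 bases from AC015802.4 on the other strand, which had 6, 3, 13 and 5 counts in the same order and was not tested, and its exons share 1639 bases with AC015802.6, which had at most 2 counts in any library.

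SNHG5 (ENSG00000203875; chromosome 6, 85660950 to 85678748, minus strand) carries the SNORD50 snoRNAs. It was counted 130 and 139 times in the control pair (a, b) and 264 and 226 times in the SNP pair. Both SNP values exceeded both control values, and the mean rose from 22.3 ± 3.26 to 31.2 ± 2.77 CPM. The log2 fold change was 0.49 (SE 0.168, adjusted p = 0.0358). It did not pass without control a (0.34, edgeR adjusted p = 0.354), without SNP a (0.39, edgeR adjusted p = 0.136) or with DESeq2 (DESeq2 adjusted p = 0.129).

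SNHG6 (ENSG00000245910; chromosome 8, 66921684 to 66926398, minus strand), the host of SNORD87, had the largest log2 fold change of the 10. Its counts were 84 and 95 for the control pair (a, b) and 223 and 175 for the SNP pair. The SNP libraries were the higher pair, and control a was the lowest. The mean rose from 14.9 ± 2.76 to 25.3 ± 3.80 CPM (log2 fold change 0.77, SE 0.193, adjusted p = 0.00522). SNHG6 was the one member past an adjusted p of 0.01 in edgeR's test, and it did not pass 0.05 without control a (0.59, edgeR adjusted p = 0.0979). Its exons share 365 bases with MCMDC2 on the other strand, which had 2 to 7 counts per library.

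ZFAS1 (ENSG00000177410; chromosome 20, 49278178 to 49295738, plus strand) lies opposite the start of ZNFX1 and carries the SNORD12 snoRNAs. Its counts were 174 and 199 for the control pair (a, b) and 296 and 258 for the SNP pair, or 26.8, 35.2, 37.2 and 33.4 CPM. Control b exceeded SNP b, so the groups overlapped. The log2 fold change was 0.19 (SE 0.160, adjusted p = 0.410), and it lay between -0.0030 without control a and 0.40 without control b, with no fit past the threshold. ZNFX1, which starts 248 bases away and shares 249 exonic bases with it, had 417, 399, 542 and 505 counts and a log2 fold change of -0.014 (SE 0.119, edgeR adjusted p = 0.947).

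GAS5 (ENSG00000234741; chromosome 1, 173863900 to 173868882, minus strand), named for its accumulation in growth-arrested cells, is a host of box C/D snoRNAs, none of whose rows was matched inside it here. It was counted 961 and 1038 times in the control pair (a, b) and 1902 and 1497 times in the SNP pair. Scaled, these were 148, 184, 239 and 194 CPM, so control b and SNP b were close to each other while SNP a stood apart. The log2 fold change was 0.38 (SE 0.118, adjusted p = 0.0196). GAS5 did not pass without control a (0.23, edgeR adjusted p = 0.328) or without SNP a (0.23, edgeR adjusted p = 0.185). ZBTB37, a zinc finger gene that starts 800 bases away on the other strand, had a log2 fold change of 0.20 (edgeR adjusted p = 0.119), and GAS5-AS1, which shares 42 exonic bases, was at 0 in every library.

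Of the 3 members whose listed snoRNAs so named are all SNORA, the H/ACA kind, SNHG7 and SNHG15 were higher and SNHG8 was lower. Over all genes tested, 13.6% were higher and 12.6% lower. With the guanine-over-cytosine offsets SNHG15 and SNHG8 passed and SNHG7 did not, where 18.7% of all genes passed. SNHG8 (ENSG00000269893; chromosome 4, 118278709 to 118279823, plus strand), the host of SNORA24, was counted 122 and 127 times in the control pair (a, b) and 118 and 86 times in the SNP pair. Although the raw counts were close, the SNP libraries were the deeper ones, and the scaled values were 18.8, 22.5, 14.8 and 11.1 CPM with no overlap. The mean fell from 20.6 ± 2.63 to 13.0 ± 2.61 CPM (log2 fold change -0.66, SE 0.204, adjusted p = 0.0198). The fall did not pass without control b (-0.53, edgeR adjusted p = 0.169), without SNP b (-0.47, edgeR adjusted p = 0.101) or with DESeq2 (DESeq2 adjusted p = 0.0927). As a share of the counts of the 10 members, SNHG8 made up 3.26% in control a and 3.35% in control b, against 1.77% in SNP a and 1.53% in SNP b. The exact (Clopper-Pearson) 95% intervals of these shares were 2.71 to 3.88% and 2.80 to 3.97% in control, and 1.47 to 2.11% and 1.22 to 1.88% in SNP, and cover counting error only.

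SNHG7 (ENSG00000233016; chromosome 9, 136721366 to 136728184, minus strand) is the host of SNORA17A and SNORA17B, and also holds the snoRNA row RF00560. Its counts were 102 and 99 for the control pair (a, b) and 168 and 219 for the SNP pair. Unlike the other members it was higher in SNP b than in SNP a, and the groups did not overlap. The mean rose from 16.6 ± 1.302 to 24.7 ± 5.11 CPM (log2 fold change 0.57, SE 0.190, adjusted p = 0.0295). SNHG7 passed in 1 of the 4 fits with a library left out, that without SNP a (0.77, edgeR adjusted p = 0.0040), and not without control a (0.49, edgeR adjusted p = 0.184), control b (0.65, edgeR adjusted p = 0.0580) or SNP b (0.35, edgeR adjusted p = 0.208). Its DESeq2 adjusted p was 0.116. FAM69B on the other strand shares 1094 exonic bases with SNHG7; it had 109, 100, 110 and 156 counts, also highest in SNP b, and a log2 fold change of -0.021 (edgeR adjusted p = 0.954).

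SNHG15 (ENSG00000232956; chromosome 7, 44983023 to 44986961, minus strand), the host of SNORA9, had the closest SNP replicates of the 10. Its counts were 89 and 88 for the control pair (a, b) and 181 and 173 for the SNP pair. The mean rose from 14.6 ± 1.34 to 22.5 ± 0.249 CPM (log2 fold change 0.63, SE 0.185, adjusted p = 0.0155). The call was lost without control a (0.53, edgeR adjusted p = 0.160) and with DESeq2 (DESeq2 adjusted p = 0.0808), and it held in the other 3 fits with a library left out.

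SNHG12 (ENSG00000197989; chromosome 1, 28578538 to 28583132, minus strand) holds both kinds, with SNORD99 beside SNORA16A, SNORA44 and SNORA61. It was counted 165 and 148 times in the control pair (a, b) and 196 and 177 times in the SNP pair. The scaled values were 25.4, 26.2, 24.6 and 22.9 CPM, so the SNP pair lay just below the control pair. The log2 fold change of -0.12 (SE 0.164, adjusted p = 0.640) was smaller than its standard error and did not pass in any fit with a library left out, where it ranged from -0.17 to -0.064. TRNAU1AP, which shares 8 exonic bases, gave -0.11 (edgeR adjusted p = 0.684).

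**Figure D2:**
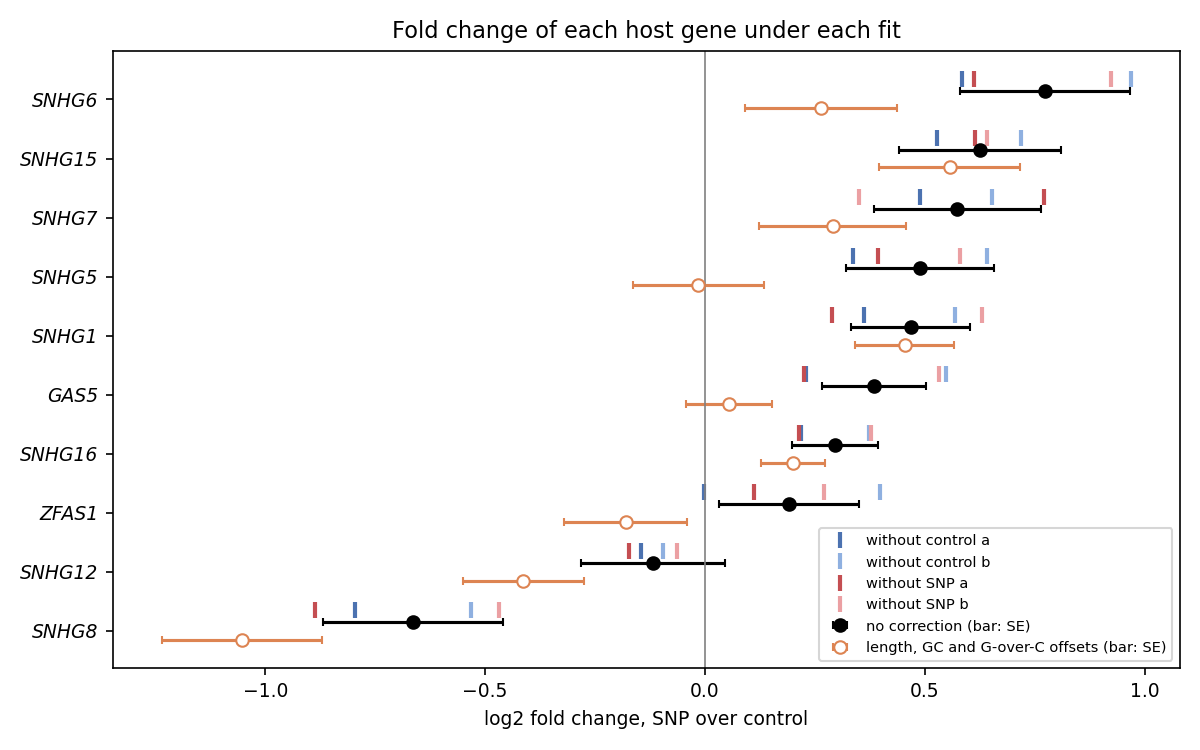
Log2 fold change of SNP over control (x axis) for each host gene: black points with SE bars are the edgeR fit, open orange points with SE bars the fit with offsets for length, GC and guanine-over-cytosine content, and ticks the 4 fits that leave out a library. The offsets move SNHG5 from 0.49 to -0.015 and SNHG8 from -0.66 to -1.05, and leave SNHG1 at 0.45.

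Base composition varied widely among the members. G minus C is the percentage of guanine less that of cytosine, summed over all annotated transcripts of a gene. An exon shared by several transcripts is thus counted in each. Over 14724 tested genes the log2 fold change had a Spearman correlation of 0.48 with G minus C. These genes are not independent replicates and share these 4 libraries. All 10 members had more G relative to C than the median gene tested (1.04 percentage points), with a member median of 4.25. The range ran from 1.35 points in SNHG1, at percentile 54.6 of genes tested, to 7.61 in SNHG6, at percentile 98.8. SNHG8 and SNHG5 had 6.98 and 6.81 points, ZFAS1 5.80, GAS5 4.44, SNHG12 4.05, SNHG7 3.56, SNHG15 2.05 and SNHG16 1.94. Among the 10 members themselves the Spearman correlation was -0.042.

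**Figure D3:**
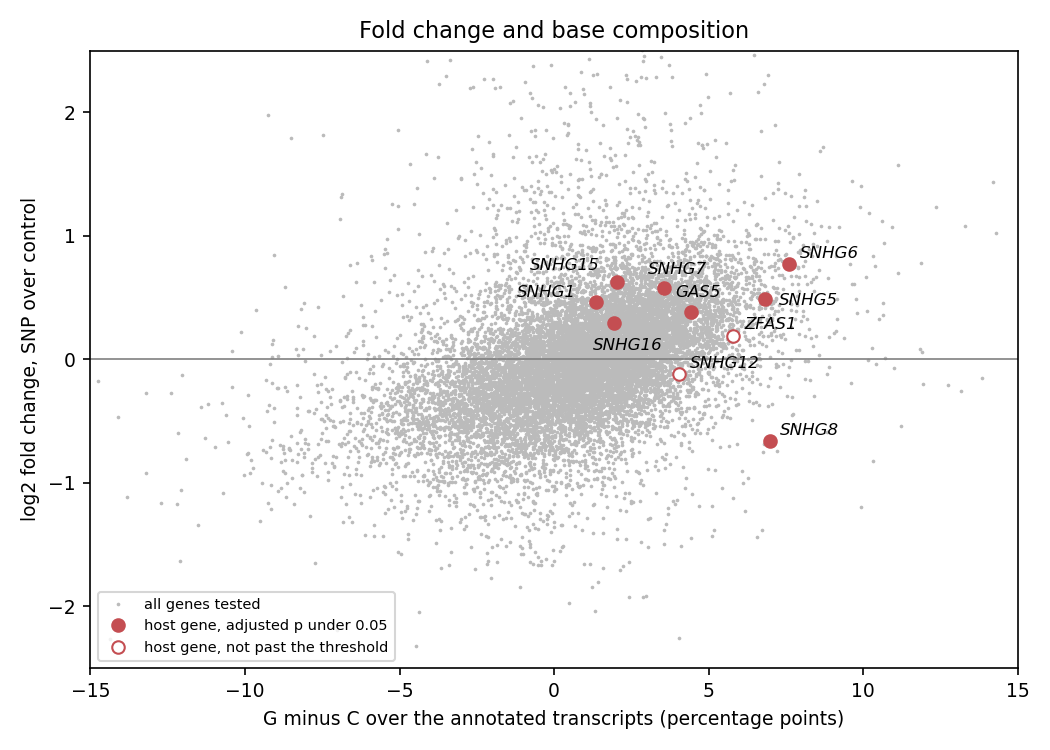
G minus C over the annotated transcripts in percentage points (x axis) against the log2 fold change of SNP over control (y axis). Grey points are the tested genes, red points the host genes, filled where the adjusted p was under 0.05. SNHG8, at 6.98 points and -0.66, lies below most genes of like composition, and 93 genes beyond 15 points or a log2 fold change of 2.5 are not drawn.

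When per-library offsets for length, GC and guanine-over-cytosine content were added to the edgeR fit, 3 members passed, where 18.7% of all genes did. The median of the members moved to 0.13, and that of all genes to -0.027. SNHG1 (0.45, edgeR adjusted p = 0.0136) and SNHG15 (0.56, edgeR adjusted p = 0.0286) were still higher, and SNHG8 was still lower (-1.05, edgeR adjusted p = 0.00184). The other 5 that had passed no longer did: SNHG6 was at 0.26 (edgeR adjusted p = 0.317), SNHG7 at 0.29 (edgeR adjusted p = 0.248) and SNHG16 at 0.20 (edgeR adjusted p = 0.0770). GAS5 stood at 0.054 (edgeR adjusted p = 0.746) and SNHG5 at -0.015 (edgeR adjusted p = 0.959). SNHG12 moved to -0.41 (edgeR adjusted p = 0.0541) and ZFAS1 to -0.18 (edgeR adjusted p = 0.406). The part of base composition in the members' differences was not tested beyond this fit.

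Each member was also set, as a description, beside the tested genes within 0.5 percentage points of its G minus C. Each set includes the member itself and any other member within that range, such as SNHG5 in the set of SNHG8. The 161 genes near SNHG8 had a median log2 fold change of 0.49, and SNHG8 lay at percentile 3.73 of them. SNHG15 lay at percentile 92.6 of the 2280 genes of its set, SNHG1 at 89.9 of 2304 and SNHG7 at 85.9 of 1343. SNHG16 was at percentile 76.1, SNHG6 at 64.8, GAS5 at 56.7, SNHG5 at 50, ZFAS1 at 28.7 and SNHG12 at 14.1. SNHG6, first by fold change, was nearer to the middle of the genes of like composition, whose median was 0.61.

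Per length of transcript, SNHG16 and GAS5 led in both groups. In the deposited TPM (a level scaled for transcript length and library), SNHG16 stood at 310 ± 27.0 in control and 413 ± 18.8 in SNP, and GAS5 at 216 ± 36.0 and 304 ± 35.2 (SD, n = 2 each). Next in control came SNHG8 at 106 ± 14.9, followed by ZFAS1 (65.3), SNHG1 (64.5) and SNHG6 (56.3), of which each neighbouring pair had overlapping ranges. SNHG5 (37.7) and SNHG12 (36.0) also overlapped, as did SNHG15 (18.9) and SNHG7 (18.0), the lowest. In SNP the next were SNHG6 (104 ± 12.2) and SNHG1 (96.3 ± 12.7), whose ranges overlapped, and SNHG8 (71.8 ± 12.2) came after ZFAS1 (80.5 ± 3.52), with which it overlapped. SNHG12 was at 36.0 in both groups.

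**Figure D4:**
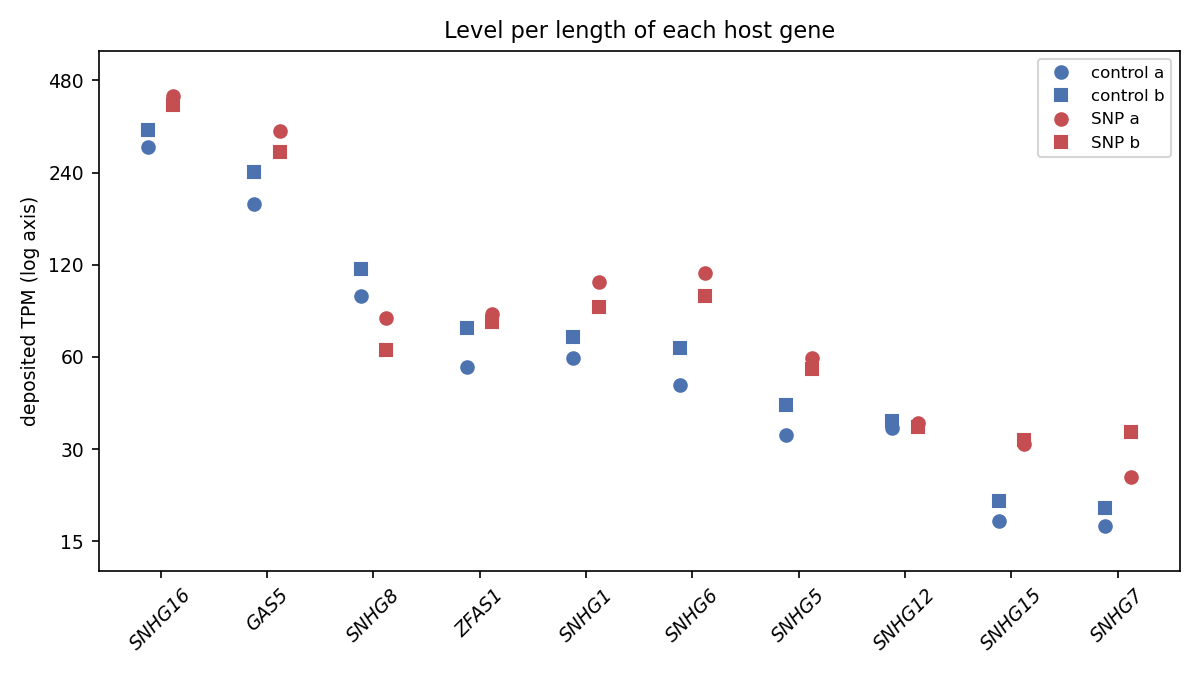
Deposited TPM (y axis, log scale) of the host genes in each library, ordered by the control mean; blue is control, red is SNP, circles are library a and squares library b. SNHG16 and GAS5 lie above the other 8 genes in every library, and SNHG8 comes next in both control libraries.

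Taken as a family, the 10 members made up 573 and 676 of every 1000000 gene counts in the control pair (a, b), and 828 and 737 in the SNP pair. The exact 95% intervals were 555 to 592, 655 to 698, 808 to 848 and 718 to 757, which cover counting error only: the replicates of each group lay outside each other's interval. Both SNP shares were above both control shares, at 783 ± 64.3 against 625 ± 72.9 per 1000000 (SD, n = 2 each), a ratio of 1.25; with 2 libraries against 2 an exact two-sided permutation test cannot go below p = 0.333. SNHG16 and GAS5 together gave 68.1 to 68.9% of these counts in every library.

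What the counts of a host gene cover differs between members. The exons annotated in GENCODE 29 span 95.6% of the SNHG1 gene, 92.8% of SNHG12, 92.6% of SNHG15 and 82.8% of SNHG8, but 26.4% of SNHG6, 15.8% of SNHG5 and 12.8% of ZFAS1. Retained-intron models make up 13 of 25 transcripts of SNHG1, 19 of 29 of GAS5 and 10 of 17 of SNHG12. Spliced and unspliced host RNA cannot be told apart in gene counts of this kind. The gene length implied by the deposited RPKM was within 1% of GENCODE 29 for 8 members; it was 3377 bases against 4266 for SNHG12 and 3972 against 5362 for SNHG16, so the model behind their counts was a smaller one and their base composition above is that of the GENCODE 29 model. The strand used in counting is not given in the sources used here, so reads of overlapping genes on opposite strands cannot be assigned between them.

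The tested genes outside the lists whose values over the 4 libraries lay nearest to the members' mean profile were EIF2S1, DNAJC10, PALLD, IFIT5 and BIRC2, out of 8318 genes with at least 20 CPM. The root mean square difference of centred log2 CPM was 0.0157, 0.0206, 0.0229, 0.0236 and 0.0243. Among the members SNHG16 lay nearest to that profile, at 0.0309, and SNHG8 farthest, at 0.489. Likeness over 4 libraries describes these values only.

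Of 17 other non-coding snoRNA hosts, 12 were tested and 0 passed in edgeR's test, where 26.2% of all genes passed. In that test 3 had an unadjusted p under 0.05, and 0 passed by DESeq2 or limma-voom. Their median log2 fold change was 0.19. SNHG3, the most abundant of them per length, had 1362 and 1334 control counts and 1750 and 1685 SNP counts, a log2 fold change of -0.026 (SE 0.0985, edgeR adjusted p = 0.881). EPB41L4A-AS1 and C6orf48 had the largest values, 0.42 (SE 0.171, edgeR adjusted p = 0.0724) and 0.36 (SE 0.137, edgeR adjusted p = 0.0575); these 3 genes were named after their values were seen. Length and GC offsets gave 3 calls among the 12, all higher, where 28.8% of all genes passed. A mean of at least 50 counts and a block for the replicate letter each gave 1 call, also higher. In those fits 33.0% and 30.4% of all genes passed. With a library left out, the log2 fold change of EPB41L4A-AS1 ran from 0.31 without SNP a to 0.53 without SNP b. That of C6orf48 ran from 0.23 to 0.48 in the same order. Whether the 10 members differ from these hosts was not tested.

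Protein-coding genes that carry snoRNAs in their introns moved in both directions. Of 43 tested, 12 rose and 15 fell, with a median of -0.19, where 13.6% of all genes rose and 12.6% fell. NCL, which encodes nucleolin, had 1633 and 1428 control counts and 4859 and 3953 SNP counts. It rose from 252 ± 1.19 to 561 ± 69.9 CPM (log2 fold change 1.15, SE 0.0990, edgeR adjusted p = 5.9e-08). PPAN, a ribosome assembly factor that also has a readthrough gene with which reads can be split, rose by 0.95 (SE 0.169, edgeR adjusted p = 2.9e-04). RPL23A, a protein of the large ribosomal subunit with many pseudogene copies between which reads can be split, fell from 350 ± 28.3 to 179 ± 32.6 CPM (-0.97, SE 0.113, edgeR adjusted p = 3.3e-06). With the guanine-over-cytosine offsets, 4 rose and 19 fell, where 18.7% of all genes passed, and NCL (0.49), PPAN (0.66) and RPL23A (-0.71) still passed.

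The proteins that assemble snoRNAs into particles were measured through 17 genes, of which 6 rose and 3 fell, with a median of 0.12, where 13.6% of all genes rose and 12.6% fell. The 3 with the largest changes belong to the H/ACA core particle. GAR1 had 41 and 38 control counts and 133 and 108 SNP counts (log2 fold change 1.23, SE 0.239, edgeR adjusted p = 6.5e-04). DKC1, the pseudouridine synthase of the particle and itself a snoRNA host counted in the list above, rose by 0.85 (SE 0.131, edgeR adjusted p = 7.1e-05). NOP10 had 70 and 57 control counts and 48 and 23 SNP counts (-1.21, SE 0.312, edgeR adjusted p = 0.0066), and did not pass without SNP b (-0.79, edgeR adjusted p = 0.0611). With the guanine-over-cytosine offsets 1 gene of the list rose and 2 fell, a share near the 18.7% of all genes that passed, and GAR1 (0.33, edgeR adjusted p = 0.310), DKC1 (0.24, edgeR adjusted p = 0.117) and NOP10 (-0.56, edgeR adjusted p = 0.242) did not pass.

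Of 19 genes of nonsense-mediated decay, 7 were higher and 1 was lower, with a median of -0.0019, where 13.6% of all genes tested were higher and 12.6% lower. UPF3B, which binds the exon junction complex, rose from 19.3 ± 1.80 to 40.9 ± 0.587 CPM (log2 fold change 1.08, SE 0.158, edgeR adjusted p = 4.3e-05). Its paralogue UPF3A and the adaptor UPF2 both rose by 0.58 (SE 0.116 and 0.115, edgeR adjusted p = 8.8e-04 and 8.0e-04). These 3 transcripts are rich in guanine relative to cytosine, at 8.63, 7.12 and 4.87 percentage points, and with the offsets for it they stood at 0.38, -0.017 and 0.16 and did not pass (edgeR adjusted p = 0.0827, 0.928 and 0.325). With those offsets 1 gene of the 19 passed, against 18.7% of all genes. Without control a or without control b 4 of the 19 passed, against 16% and 15.8% of all genes.

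Of 7 protein-coding genes known as decay targets, 6 were tested, 2 rose and 0 fell, where 26.2% of all genes passed. GADD45A, a growth arrest and DNA damage gene, had 20 and 24 control counts and 181 and 169 SNP counts, a log2 fold change of 2.61 (SE 0.247, edgeR adjusted p = 2.7e-07), and 2.04 with the guanine-over-cytosine offsets (edgeR adjusted p = 9.8e-05). ATF3, a stress-induced transcription factor named after its value was seen, had 12, 17, 55 and 34 counts and rose by 1.23 (SE 0.4003, edgeR adjusted p = 0.0269). It did not pass without control a (0.90, edgeR adjusted p = 0.197), without SNP a (0.86, edgeR adjusted p = 0.313) or with DESeq2 (DESeq2 adjusted p = 0.127). ATF4, DDIT3, TBL2 and UPP1 did not pass.

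**Figure D5:**
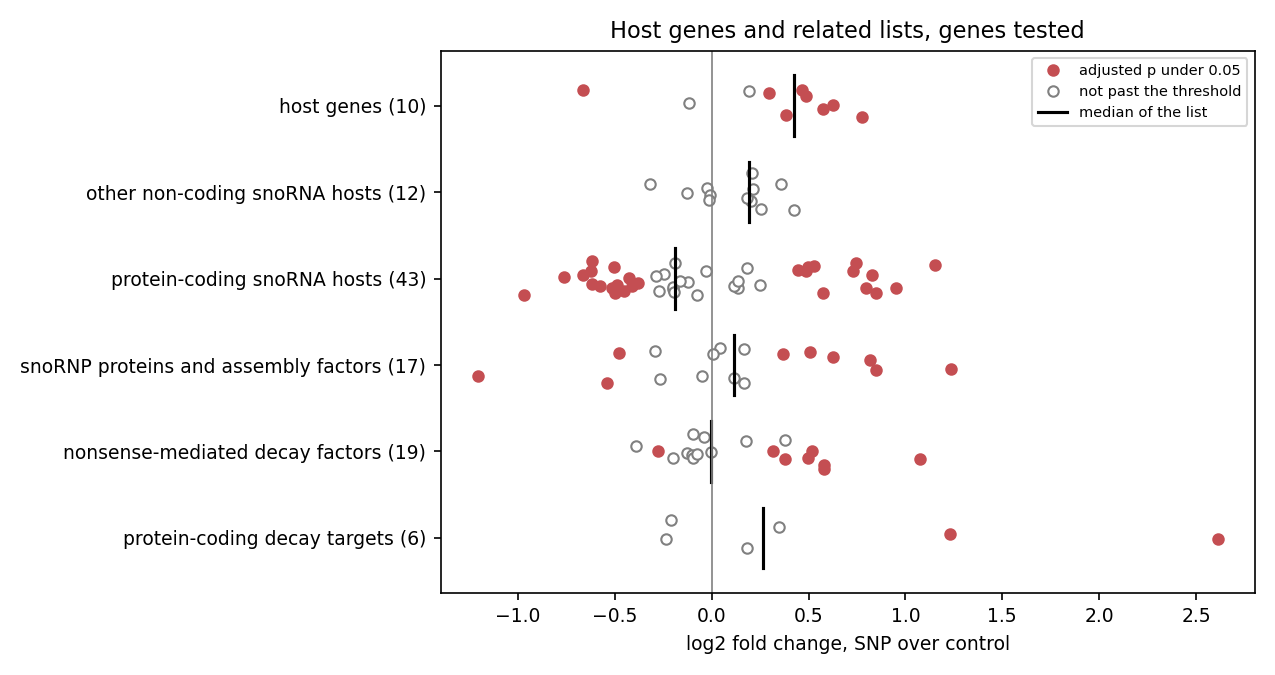
Log2 fold change of SNP over control (x axis) of the tested genes of each list, with the number tested in brackets; filled red points had an adjusted p under 0.05, open points did not, black bars are list medians, and points are spread vertically at random for legibility. The host genes' median is 0.43, the other non-coding hosts have no filled point, and the protein-coding hosts have filled points on both sides of 0.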

How the data were processed

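RNA sequencing tables of 4 SH-SY5Y libraries were used, grouped and lettered as in their titles and descriptions. The authors deposited, per gene, whole-number read counts, TPM and RPKM, per the file headers; the genome build is GRCh38, per the submitters' processing notes, and the aligner, counter and annotation are not given in the sources used here. Of the 58243 gene identifiers, 57980 were found in GENCODE 29, which supplied positions, exon lengths and base composition; start sequences came from RefSeq.

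Deposited counts were tested with edgeR 4.0.16 in R 4.3.3: filterByExpr (minimum count 10), TMM, glmQLFit and glmQLFTest over all genes, without covariates, two-sided, Benjamini-Hochberg adjusted, threshold 0.05. The biological coefficient of variation was 0.0869. CPM was computed from the counts and TMM factors, which lay between 0.989 and 1.01. TPM was used as deposited, and RPKM only to derive gene lengths and read totals. Offsets came from lowess fits within each library (span 0.5, 3 iterations). DESeq2 1.42.0 and limma 3.58.1 served as alternatives. The fits were tested on simulated counts.

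The host genes and related lists were chosen with earlier results of these data known. Genes named beyond the members were those with starts within 1 kb on the other strand or shared exons, up to 3 called genes per list with the largest change and a mean of at least 5 CPM, and the 5 nearest profiles, unless stated. Some genes that this rule names are not reported here.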

Additional observations from a re-analysis of the deposited data

How the results depend on the processing

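The count of 8 host genes called was also 8 with DESeq2's size factors, total counts, scaling without the 20 most abundant genes, a mean of at least 50 counts, limma-voom, and length and GC offsets, and 7 with no filter. Among all genes, the share passing ran from 25.1% (total counts) to 33.0% (a mean of at least 50 counts) where 8 members passed. It was 15.5% with no filter. It was 4 with DESeq2's Wald test, 3 with guanine-over-cytosine offsets, and 1 at an adjusted p under 0.01, where 15.1% of all genes passed. Only genes without exonic overlap left no member, so that setting gave no value. Genes sharing exons with small RNAs at most were an alternative chosen after seeing the data. Among them all 4 members tested were called (3 higher, 1 lower), where 27.7% of all genes in that fit passed. Leaving out 1 library gave 1 to 6 calls and a median log2 fold change between 0.26 and 0.56, against 0.43; the guanine-over-cytosine offsets gave a median of 0.13. Directions turned for SNHG5 (-0.015) and ZFAS1 (-0.18) with those offsets, and for ZFAS1 (-0.0030) without control a; the cause was not tested. The log2 ratio of the family's share of counts was 0.33, 0.33 with TMM, 0.40 from deposited TPM and 0.40 over the totals implied by RPKM. With the replicate letter as a block (replicate block), 8 members were called and the median was 0.42. The block gave 4487 calls among all genes (30.4%) against 3861 without it. The letters' deviations correlated at 0.050 across genes. With 2 pairs this cannot show whether libraries of the same letter shared a culture or a batch. Depth and 2 libraries per group limit precision: the standard errors of the members lay between 0.0981 and 0.204.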
